A study of Mus musculus with 4 samples.

Results

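The 10 genes described here encode the enzymes that make prostaglandins, thromboxane and leukotrienes from arachidonic acid, together with the protein that presents arachidonic acid to 5-lipoxygenase. They were chosen by symbol (Pla2g4a, Alox5, Alox5ap, Lta4h, Ltc4s, Ptgs1, Ptgs2, Ptges, Tbxas1 and Hpgds), and all 10 were among the 16360 gene symbols counted. The rule itself uses no measured value, but the set was picked with earlier results of these data known. Recruited alveolar macrophages, the monocyte-derived cells that enter the airspace after lung injury, were taken from male mice homozygous for the R213G substitution in extracellular superoxide dismutase (EC-SOD), a secreted antioxidant enzyme, and from wild-type (WT) male mice. The mice were 8 to 10 weeks old, of a strain that the labels write as CD57/Bl6, and all of them, WT included, had been treated intratracheally with bleomycin (100 µl of 1 U/ml), which causes lung injury. Cells were sorted 7 days later by high CD64, low Siglec-F and high CD11b, and poly(A) RNA was sequenced from 2 libraries of each genotype. There were no mice without bleomycin, so the libraries compare genotypes after injury and do not show what injury did.

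Cytosolic phospholipase A2 frees arachidonic acid from membranes, and the acid then enters either of a pair of branches. In the leukotriene branch, 5-lipoxygenase and its activating protein make leukotriene A4, which Lta4h turns into the neutrophil attractant leukotriene B4 and Ltc4s joins to glutathione to give the cysteinyl leukotrienes. In the prostanoid branch, the cyclooxygenases make prostaglandin H2, which separate synthases turn into prostaglandin E2, prostaglandin D2 or thromboxane A2. Alveolar macrophages are known as makers of leukotriene B4, thromboxane and prostaglandins, and the mediators act on leukocyte traffic, airway tone and fibroblasts in the lung.

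Promoter windows of the members came from RefSeq (GRCm38.p6), each holding the 250 bases before and the 50 bases after an annotated start, and 9 of the 10 members had at least 1. Ptgs1 and Ptgs2 are shown because they encode the same enzymatic step and stood far apart in level, and Hpgds because it shared an 8-letter match with Ptgs1. The windows lie at chr2:36230176-36230475 (plus strand), chr1:150099781-150100080 (plus strand) and chr6:65144681-65144980 (minus strand), and each is written 5′ to 3′ along its gene, with matches to the letters searched in capitals.
Ptgs1: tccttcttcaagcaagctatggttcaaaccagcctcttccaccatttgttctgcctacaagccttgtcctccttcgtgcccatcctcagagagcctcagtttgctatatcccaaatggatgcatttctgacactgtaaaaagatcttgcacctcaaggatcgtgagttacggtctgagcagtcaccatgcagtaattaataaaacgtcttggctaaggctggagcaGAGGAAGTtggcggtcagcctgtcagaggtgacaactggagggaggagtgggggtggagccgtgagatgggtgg
Ptgs2: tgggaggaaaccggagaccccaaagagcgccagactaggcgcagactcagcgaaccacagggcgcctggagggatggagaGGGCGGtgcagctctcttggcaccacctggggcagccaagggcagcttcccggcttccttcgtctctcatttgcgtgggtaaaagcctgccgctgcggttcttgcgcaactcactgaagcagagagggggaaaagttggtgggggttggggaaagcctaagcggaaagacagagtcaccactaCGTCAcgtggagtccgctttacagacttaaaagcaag
Hpgds: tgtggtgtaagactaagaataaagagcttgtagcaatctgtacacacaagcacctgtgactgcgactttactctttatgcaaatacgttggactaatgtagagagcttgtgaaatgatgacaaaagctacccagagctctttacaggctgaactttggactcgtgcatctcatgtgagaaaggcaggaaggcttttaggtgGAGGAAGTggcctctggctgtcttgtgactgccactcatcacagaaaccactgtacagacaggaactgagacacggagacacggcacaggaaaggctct
The letters searched on both strands were GGGCGG (the Sp1 box), GAGGAAGT (a PU.1 site), TGACGTCA (the cyclic AMP response element), its first 5 letters (which every full element also holds), a 10-letter form of the NF-kB site and the 6 letters of the TATA box. GAGGAAGT, the letters bound by the macrophage lineage factor PU.1, stood in the Ptgs1 and Hpgds windows and in no other of the 10 member windows, and 3.20% of 32851 windows of all genes held it. It began 24 bases before the start of Ptgs1 and 49 bases before that of Hpgds. Ptgs2 held the Sp1 box and the 5 letters of the response element, which stood in 35.7% and 20.8% of all windows. A match shows that the letters are there and nothing about binding.

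Total counts ranged from 33488569 to 35176210 per library. R213G replicate 1 had the fewest symbols with a count, 13584 against 14598 to 15194 in the other libraries. Whether the libraries stem from different mice is not stated in the labels, and the p-values cover no more than the spread among the 4 libraries. The genes of the sort gate were measured as labelled: Fcgr1, which encodes CD64, was counted 8530 and 8718 times in R213G and 8613 and 8334 times in WT, Itgam, which encodes CD11b, had 25095 to 29325 counts over the 4 libraries, and Siglecf had 358 to 413. Counts of Sod3, the gene of EC-SOD, were 4 and 47 in R213G against 47 and 96 in WT, and the substitution leaves the transcript countable, so its level does not check the genotype.

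No member passed the test between the genotypes (quasi-likelihood in edgeR, Benjamini-Hochberg adjustment over 13575 genes, threshold 0.05). The adjusted p was 1.00 for each, 0 of 10 members had an unadjusted p under 0.05, and of all tested genes 0% passed and 2.22% had such an unadjusted p. All 10 passed the filter on low counts. The log2 fold change, R213G over WT, was above 0 for 5 members and below 0 for the other 5, and its median was 0.05, beside -0.01 over all tested genes. The 5 above 0 were Pla2g4a and the 4 leukotriene members, and the 5 below 0 were the cyclooxygenases and the prostanoid synthases. That split was the same under each of 3 scalings. It was not the same when R213G replicate 1, WT replicate 1 or WT replicate 2 was left out. Values with and without R213G replicate 1 stand with each gene.

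**Figure D1:**
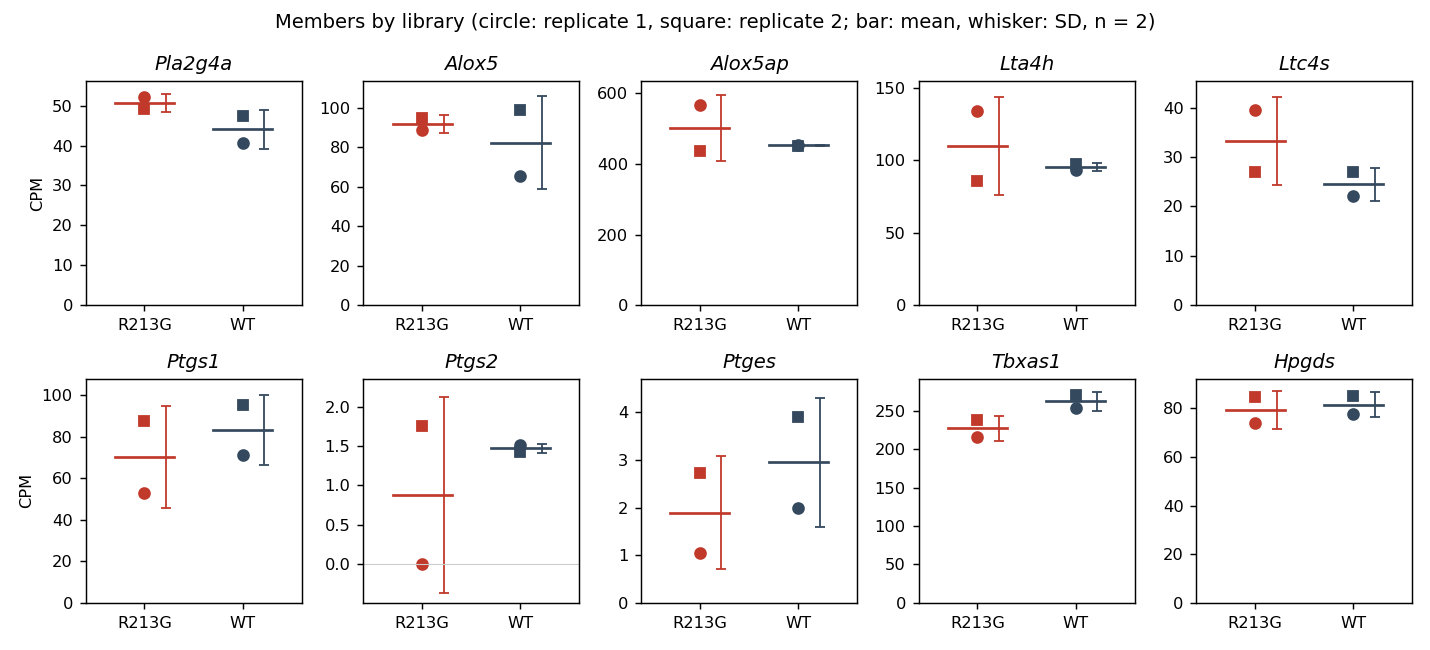
CPM (counts per 1e6) of each member in each library, on linear axes, with R213G on the left and WT on the right of each panel. Circles are replicate 1 and squares replicate 2, horizontal lines are means and whiskers SD (n = 2). R213G replicate 1 is the highest library for Pla2g4a, Alox5ap, Lta4h and Ltc4s and the lowest for the 5 genes of the lower row.

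Levels of different genes were set side by side as CPM per kb of annotated exon, where CPM are counts per 1e6 of the library size after scaling. In WT the order from high to low was Alox5ap, Tbxas1, Ltc4s, Ptgs1, Alox5, Lta4h, Hpgds, Pla2g4a, Ptges and Ptgs2. Alox5ap, the gene of the 5-lipoxygenase activating protein FLAP, averaged 354 ± 65.7 CPM per kb in R213G and 319 ± 0.522 in WT (SD, n = 2 each). Per base of all annotated exons the next genes were more than 10 times lower, with Tbxas1 at 24.96 ± 1.75 CPM per kb in R213G and 28.8 ± 1.38 in WT and Ltc4s at 32.8 ± 8.82 in R213G and 24.2 ± 3.35 in WT. Pla2g4a, the lowest of the 8 well-expressed members, stood at 7.92 ± 0.344 CPM per kb in R213G and 6.89 ± 0.765 in WT. Ptges and Ptgs2 were far below it, with Ptges at 0.481 ± 0.301 in R213G and 0.751 ± 0.343 in WT and Ptgs2 at 0.191 ± 0.271 in R213G and 0.321 ± 0.0132 in WT. The macrophages thus carried the transcripts of the leukotriene branch, of the constitutive cyclooxygenase and of the prostanoid synthases Tbxas1 and Hpgds. They carried few of the inducible cyclooxygenase and of the inducible prostaglandin E synthase.

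Not every neighbour in that order was separated beyond the spread of its libraries. In WT the libraries of Ltc4s overlapped with those of Ptgs1, and those of Ptgs1 with those of Alox5, while the other neighbours did not overlap. In R213G, where Ltc4s stood above Tbxas1, the pairs Alox5 and Ptgs1, Ptgs1 and Lta4h, and Ptges and Ptgs2 overlapped. The lengths are uncertain for genes with rare long transcripts: the annotated exons of Tbxas1 cover 9094 bases and those of Lta4h 6102, against 4562 and 3225 bases for their longest transcripts. With the longest transcripts Alox5ap had 402 CPM per kb in R213G and 362 in WT, and Tbxas1 49.8 in R213G and 57.4 in WT, so that gap was then less than 10 times. Alox5ap stayed first and Pla2g4a, Ptges and Ptgs2 stayed last with either length in both genotypes.

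**Figure D2:**
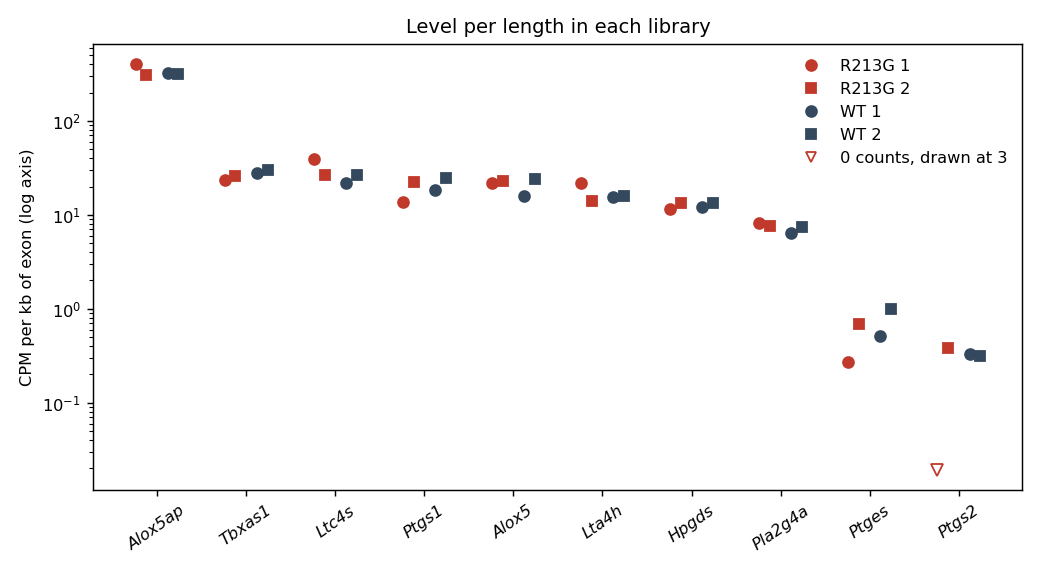
Level of each member as CPM per kb of exon in each library, on a log axis, ordered by the WT mean. Circles are replicate 1 and squares replicate 2, and the open triangle stands at 3 counts for Ptgs2 in R213G replicate 1, which had 0. Alox5ap lies above all others, 7 members lie between about 6 and 40, and Ptges and Ptgs2 lie below 1.

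Pla2g4a, on chromosome 1 from 149829618 to 149961290 (GRCm38, minus strand), encodes cytosolic phospholipase A2, which releases arachidonic acid. It measured 52.2 and 49.1 CPM in R213G replicates 1 and 2 and 40.6 and 47.5 CPM in WT replicates 1 and 2. Both R213G libraries lay above both WT libraries, by a margin smaller than the gap between the WT libraries. The log2 fold change was 0.20 ± 0.16 (SE), with an unadjusted p of 0.252 in the edgeR test. It stayed above 0 without each library in turn, between 0.09 and 0.32, and was 0.16 without R213G replicate 1. Ptgs2 is its neighbour on the same chromosome, from 150100031 to 150108227, but the pair differed in level and in the library that stood lowest.

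Alox5, on chromosome 6 from 116410077 to 116461178, encodes 5-lipoxygenase, the enzyme that commits arachidonic acid to leukotrienes. Its values were 88.7 and 95.1 CPM in R213G and 65.7 and 98.9 CPM in WT. The WT libraries were the lowest and the highest of the 4, and both R213G libraries fell between them. Its log2 fold change of 0.16 ± 0.19 was -0.11 without WT replicate 1 and 0.48 without WT replicate 2 (edgeR, unadjusted p = 0.0436 and adjusted p = 1.00 in that smaller fit). Without R213G replicate 1 it was 0.21.

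Alox5ap, on chromosome 5 from 149264767 to 149288153, encodes FLAP, the membrane protein that hands arachidonic acid to 5-lipoxygenase. It measured 568 and 436 CPM in R213G and 453 and 452 CPM in WT, so that the WT libraries were nearly level and the R213G libraries lay on either side of them. Its log2 fold change of 0.15 ± 0.14 turned to -0.05 with R213G replicate 1 left out and was 0.33 with R213G replicate 2 left out. An antisense gene, Gm19719, shares 189 bases of exon with Alox5ap and had 76 to 179 counts, against 14980 to 19405 for Alox5ap. The strand setting of the counting is not given in the sources used here. How reads in the shared bases were counted, and how far this touches Alox5ap, is therefore not known.

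Lta4h, on chromosome 10 from 93453411 to 93484875, encodes leukotriene A4 hydrolase, which makes leukotriene B4. Its values were 134 and 85.7 CPM in R213G and 93.5 and 97.2 CPM in WT. R213G replicate 1 was the highest library and R213G replicate 2 the lowest, and the WT libraries lay between them. Leaving out R213G replicate 1 turned the log2 fold change of 0.20 ± 0.19 to -0.15, and leaving out R213G replicate 2 gave 0.49.

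Ltc4s, on chromosome 11 from 50236461 to 50238616, encodes leukotriene C4 synthase, which makes the first cysteinyl leukotriene. Its counts were 1351 and 937 in R213G, against 730 and 923 in WT, or 39.6 and 26.9 CPM in R213G and 22.1 and 26.9 CPM in WT. R213G replicate 1 stood above the rest, and R213G replicate 2 was level with WT replicate 2. The log2 fold change of 0.44 ± 0.24 had the smallest unadjusted p of the members, 0.0982 in the edgeR test. With R213G replicate 1 left out it was 0.14, and with R213G replicate 2 left out 0.69. The antisense gene Gm26542 shares 268 of the 1014 exon bases of Ltc4s. It was counted 1 and 25 times in R213G and 85 and 15 times in WT. How reads in the shared bases were counted is not known, so the counts of Ltc4s could be touched in any library. The count of Gm26542 was highest in WT replicate 1, where Ltc4s had 730.

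Ptgs1, on chromosome 2 from 36230426 to 36252272, encodes cyclooxygenase-1, the form present in resting cells. It measured 52.8 and 87.6 CPM in R213G and 71.2 and 95.03 CPM in WT. R213G replicate 1 was the lowest library, and R213G replicate 2 lay between the WT libraries. Its log2 fold change was -0.24 ± 0.23, 0.08 with R213G replicate 1 left out and -0.66 with R213G replicate 2 left out.

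Ptgs2 encodes cyclooxygenase-2, the form induced by inflammatory stimuli. Its counts were 0 and 61 in R213G, against 50 and 49 in WT, or 0 and 1.75 CPM in R213G and 1.51 and 1.43 CPM in WT. The 3 libraries with counts had overlapping exact Poisson intervals, from 36.3 to 78.4 counts over the 3 (95%, for counting error only). The same interval for the 0 in R213G replicate 1 reached 3.69 counts. The floor of 3 counts at which that 0 is drawn stands for 0.0879 CPM. The R213G libraries were thus the lowest and the highest of the 4. Its fold change, -0.73 ± 1.03 on the log2 scale, was 0.25 with R213G replicate 1 left out, and with R213G replicate 2 left out the R213G side is at 0 and gives no fold change that can be read.

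Ptges, on chromosome 2 from 30889471 to 30929863, encodes microsomal prostaglandin E synthase-1, the inducible enzyme that works with cyclooxygenase-2. Its counts were 36 and 95 in R213G, against 66 and 134 in WT, or 1.054 and 2.73 CPM in R213G and 2.00 and 3.90 CPM in WT. Within each genotype replicate 2 was about the double of replicate 1 or more, and the groups overlapped. For this gene the log2 fold change of -0.64 ± 0.68 ranged from -1.49 to -0.07 when single libraries were left out, and was -0.12 without R213G replicate 1.

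Tbxas1, on chromosome 6 from 38875404 to 39084585, encodes thromboxane A synthase, which makes the vasoconstrictor and platelet activator thromboxane A2. It measured 216 and 238 CPM in R213G and 253 and 271 CPM in WT. Both R213G libraries lay below both WT libraries. The gap between the nearest libraries of the genotypes was smaller than that between the libraries of either genotype. The log2 fold change was -0.21 ± 0.12 (edgeR, unadjusted p = 0.110), and it kept its sign without each library in turn, between -0.28 and -0.14, the value nearest to 0 being that without R213G replicate 1. Hipk2 lies on the other strand within the same stretch of chromosome 6 and shares 0 exon bases with it.

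Hpgds, also on chromosome 6, from 65117293 to 65144908, encodes hematopoietic prostaglandin D synthase. Its values were 73.8 and 84.8 CPM in R213G and 77.9 and 85.2 CPM in WT. This was the member with the log2 fold change nearest to 0, at -0.04 ± 0.14, and its libraries interleaved. Without R213G replicate 1 the log2 fold change was 0.06.

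**Figure D3:**
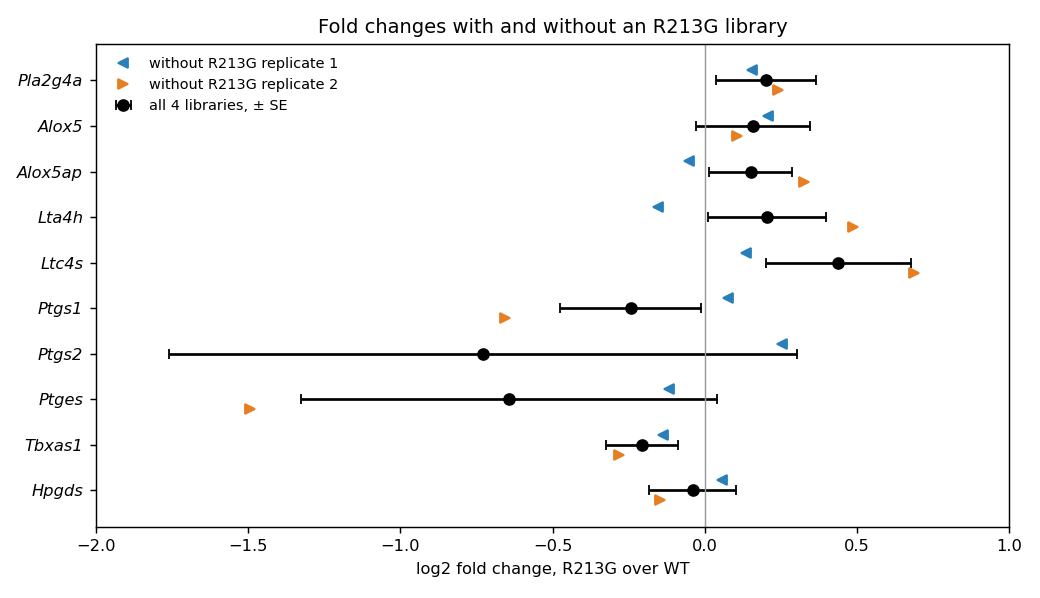
Log2 fold change, R213G over WT, of each member from the fit over all 4 libraries (black, whiskers SE) and without R213G replicate 1 or replicate 2 (triangles). Ptgs2 has no triangle without R213G replicate 2, because R213G replicate 1 had 0 counts. For Alox5ap, Lta4h, Ptgs1 and Hpgds the triangles lie on opposite sides of 0.

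R213G and WT libraries were fully separated for 3 of the 10 members: Pla2g4a and Ltc4s were higher in R213G and Tbxas1 was lower. Over all tested genes 28.9% were so separated, so the share among the members was near the background. Ltc4s rested on a difference in the second decimal of its CPM, and with the DESeq2 size factors or upper-quartile scaling it overlapped and 2 members were separated.

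The R213G libraries differed from each other by more than the genotypes did, on measures that are not alike. Over the members, the median size of the log2 difference was 0.46 between the R213G libraries and 0.18 between the WT libraries (on CPM + 0.5). The median size of the fold change was 0.20. Over all tested genes these medians were 0.30, 0.22 and 0.17. The fold change is fitted to groups of 2 libraries, so noise moves it less than a difference between single libraries. R213G replicate 1 was the highest library for 4 members and the lowest for 5, where it was the highest for 31.2% and the lowest for 36.5% of all tested genes. The 4 were Pla2g4a, Alox5ap, Lta4h and Ltc4s, and the 5 were Ptgs1, Ptgs2, Ptges, Tbxas1 and Hpgds, so each cyclooxygenase and prostanoid synthase member was lowest there. WT replicate 2 was the highest library for 5 members (Alox5, Ptgs1, Ptges, Tbxas1 and Hpgds) and for 21.6% of all tested genes. These patterns were noticed in the values and have no test. R213G replicate 1 also had the most counts of Gm42418, a non-coding transcript that carries ribosomal RNA sequence, with 57660 and 17841 in R213G against 22178 and 24093 in WT. The macrophage and sort gate markers (8 of 9 analysed) summed to 24068 and 28784 CPM in R213G against 30824 and 26904 CPM in WT, lowest in R213G replicate 1. Lyz2 made up most of that sum, at 19065 and 23281 CPM in R213G and 25101 and 21736 CPM in WT. Cd68, Adgre1, Mertk and Csf1r were also lowest in R213G replicate 1. The sort gate genes Fcgr1, Itgam and Siglecf were not, and Siglecf was highest there. The part of Gm42418 or of these markers in the member values was not tested. Against the mean of the other 3 libraries, R213G replicate 1 differed by 0.63 for Ltc4s, 0.54 for Lta4h and 0.35 for Alox5ap and by -0.67 for Ptgs1, -1.12 for Ptges and -2.05 for Ptgs2 on the log2 scale. The median size of that deviation over the members was 0.44 in R213G replicate 1, 0.17 in R213G replicate 2, 0.23 in WT replicate 1 and 0.17 in WT replicate 2, and over all tested genes it was 0.27, 0.17, 0.20 and 0.17 in the same order.

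**Figure D4:**
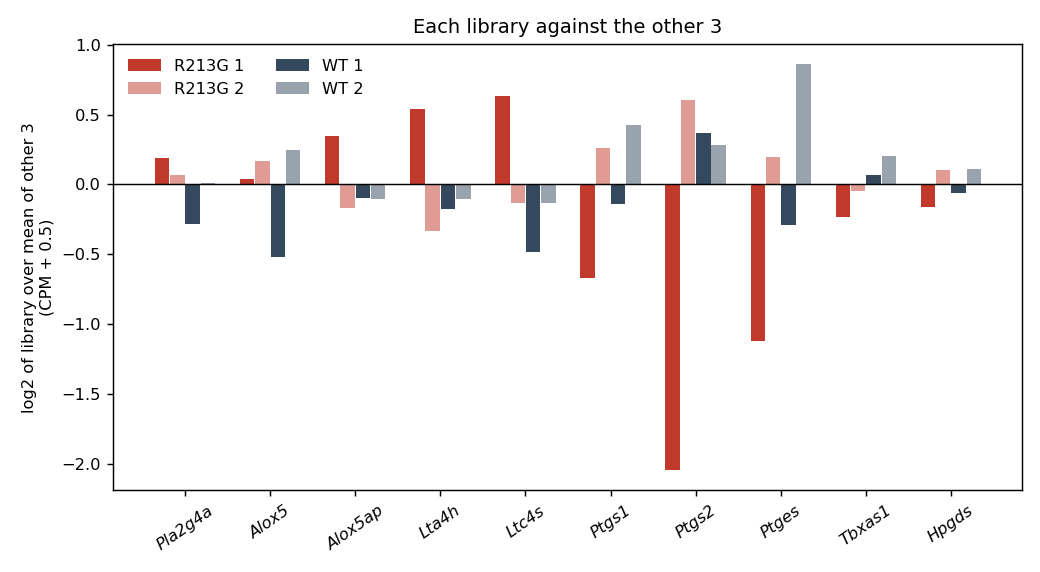
Log2 of each library over the mean of the other 3 (CPM + 0.5) for each member, with R213G libraries in red, WT libraries in grey and replicate 2 in the lighter shade. R213G replicate 1 reaches 0.63 for Ltc4s and -2.05 for Ptgs2, and the other libraries pass 0.5 in size only for Alox5 and Ptges in WT and for Ptgs2 in R213G replicate 2.

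Ratios of counts within a library, which no scaling enters, set R213G replicate 1 apart for some pairs of members and not for others. The log2 ratio of Ltc4s to Ptgs1 was -0.42 and -1.70 in R213G, against -1.69 and -1.82 in WT, and that of Lta4h to Tbxas1 was -0.69 and -1.47 in R213G, against -1.44 and -1.48 in WT. In both ratios R213G replicate 2 lay within 0.04 of the nearer WT library. The ratio of Hpgds to Tbxas1, both terminal prostanoid synthases, was -1.55 and -1.49 in R213G, against -1.70 and -1.67 in WT, where both R213G libraries lay above both WT libraries by at least 0.12. Ltc4s to Tbxas1, at -2.45 and -3.15 in R213G against -3.52 and -3.33 in WT, was also higher in both R213G libraries. Since Ltc4s was higher and Tbxas1 lower in both R213G libraries, the ratio of that pair had to be separated. Ltc4s to Lta4h, at -1.76 and -1.67 in R213G against -2.08 and -1.85 in WT, was higher in both R213G libraries too. The ratio of Alox5ap to Alox5 was 2.68 and 2.20 in the R213G libraries, against 2.79 and 2.19 in those of WT, highest in WT replicate 1. Alox5ap to Ptgs1, at 3.43 and 2.32 in R213G against 2.67 and 2.25 in WT, overlapped between the genotypes. So did Ptgs1 to Hpgds, at -0.48 and 0.05 in R213G against -0.13 and 0.16 in WT. All these pairs were picked after the values were seen and were not tested. The share of all gene pairs separated in this way was not computed.

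Markers of other cells that carry these enzymes were read beside the members, as summed CPM over the genes analysed. The platelet list (Pf4, Ppbp and Itga2b, 3 of 7 listed) summed to 17.9 and 33.8 CPM in R213G and 36.3 and 30.7 in WT, lowest in R213G replicate 1 as were Ptgs1 and Tbxas1, which platelets also express. Pf4 made up most of that sum, and Ppbp had 0 to 11 counts. Itga2b did not share the low value of Pf4 in R213G replicate 1. It was counted 27 times there, against 15 times in R213G replicate 2, 37 times in WT replicate 1 and 13 times in WT replicate 2. The neutrophil list (3 of 9) summed to 20.7 and 13.2 CPM in R213G and 11.1 and 14.2 in WT, and S100a8 made up most of that sum. S100a9 had 31 counts in R213G replicate 1 and 0 in the other libraries. Cxcr2 had 0 counts in R213G replicate 1, with 33 in R213G replicate 2 and 0 and 35 in WT. Kit, the 1 mast cell and basophil gene of 9 analysed, measured 39.7 and 12.3 CPM in R213G and 34.95 and 12.4 in WT, high in replicate 1 of both genotypes. The sum of the 6 dendritic cell markers did likewise, with 136 and 44.1 CPM in R213G and 153 and 39.5 in WT. Not every gene of that list followed its sum. Xcr1 was absent from replicate 1 of both genotypes, while R213G replicate 2 held 17 counts of it and WT replicate 2 held 15. Clec9a was at 0 in R213G replicate 1 against 20 counts in R213G replicate 2, but fell from 36 to 8 between the WT replicates. The epithelial list (7 of 7) summed to 34.5 and 21.4 CPM in R213G and 17.9 and 15.01 in WT, led by Epcam. Other genes of the list did not follow Epcam. Ager had 0 counts in R213G replicate 1, against 53 in R213G replicate 2, 48 in WT replicate 1 and 83 in WT replicate 2. Sftpb was lowest in R213G replicate 1, at 14 counts. Krt8, Sftpc and Foxj1 were at 0 there and at 0 or low counts elsewhere. Scgb1a1 was higher in both R213G libraries than in both WT libraries. Col1a1, the fibroblast gene analysed, had 0 to 1 counts. The part of these cells in the member values was not tested. In sorted bulk RNA, fewer cells of a type and less RNA per cell cannot be told apart.

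Of the other genes of the pathway, 40 were analysed and 34 passed the filter, and 0 of the 34 passed the test over all genes (edgeR). At an unadjusted p under 0.05 there were 2, both higher in R213G, where 2.22% of all tested genes had such a p. The median log2 fold change of the 34 was 0.04, with 20 above 0 and 14 below, beside a median of -0.01 over all tested genes. Of all tested genes, 6659 of 13575 lay above 0. By role, the number above 0 was 2 of 6 phospholipases, 8 of 8 other synthases and lipoxygenases and 4 of 11 genes of mediator inactivation. It was 2 of 2 for transporters and 4 of 7 for receptors. The role medians were -0.09, 0.17, -0.04, 0.01 and 0.17 in the same order. Among the 8 other synthases and lipoxygenases, the SE was larger than the fold change for Cbr1, Akr1b3, Mgst2, Mgst3 and Aloxe3. It was smaller for Ptges2, Ptges3 and Mgst1.

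The 2 genes at an unadjusted p under 0.05 were Ptges3 and Ptger1. Ptges3, a cytosolic prostaglandin E synthase better known as the Hsp90 co-chaperone p23, was counted 1810 and 1705 times in R213G and 1151 and 1266 times in WT, or 51.0 ± 2.84 CPM in R213G and 35.9 ± 1.46 CPM in WT. Both R213G libraries lay above both WT libraries, the log2 fold change was 0.51 ± 0.16 (edgeR, unadjusted p = 0.0117), and it ranged from 0.45 to 0.56 when single libraries were left out. Pseudogene copies of Ptges3 exist in the annotation, and how reads shared with them were counted is not given. Ptger1, the prostaglandin E2 receptor EP1, was counted 300 and 319 times in R213G and 115 and 203 times in WT, with a log2 fold change of 0.93 ± 0.40 (edgeR, unadjusted p = 0.0459). Without WT replicate 1 it was 0.60. The counts of Ptger1 are uncertain, since the strand setting of the counting is not given. Neither gene passed after adjustment (adjusted p = 1.00 in edgeR).

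None of the most abundant genes of each role passed the test between the genotypes. Pla2g15, the lysosomal phospholipase A2, measured 307 ± 27.2 CPM in R213G and 336 ± 29.5 CPM in WT, and Pla2g7, which inactivates platelet-activating factor, 97.8 ± 7.16 CPM in R213G and 109 ± 25.7 CPM in WT. Mgst1, a glutathione transferase of the same membrane protein family as Ptges, averaged 94.7 ± 8.53 CPM in R213G and 85.5 ± 2.27 in WT. Cyp4f18, which degrades leukotriene B4, averaged 161 ± 32.9 CPM in R213G and 166 ± 16.5 in WT, and Dpep2, a dipeptidase that trims leukotriene D4, 142 ± 25.4 CPM in R213G and 126 ± 6.78 in WT. The exporters Abcc1 and Abcc4, which carry leukotriene C4 and prostaglandins out of cells, had log2 fold changes of 0.01 ± 0.14 and 0.02 ± 0.15. Among receptors, Ptgir for prostacyclin measured 74.7 ± 9.40 CPM in R213G and 66.2 ± 2.30 CPM in WT, and Ptger4 for prostaglandin E2 56.3 ± 10.3 CPM in R213G and 67.9 ± 24.95 CPM in WT. Alox15, the 12/15-lipoxygenase that marks peritoneal resident macrophages in mice, had 0 counts in every library, which allows up to 3 counts per library.

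**Figure D5:**
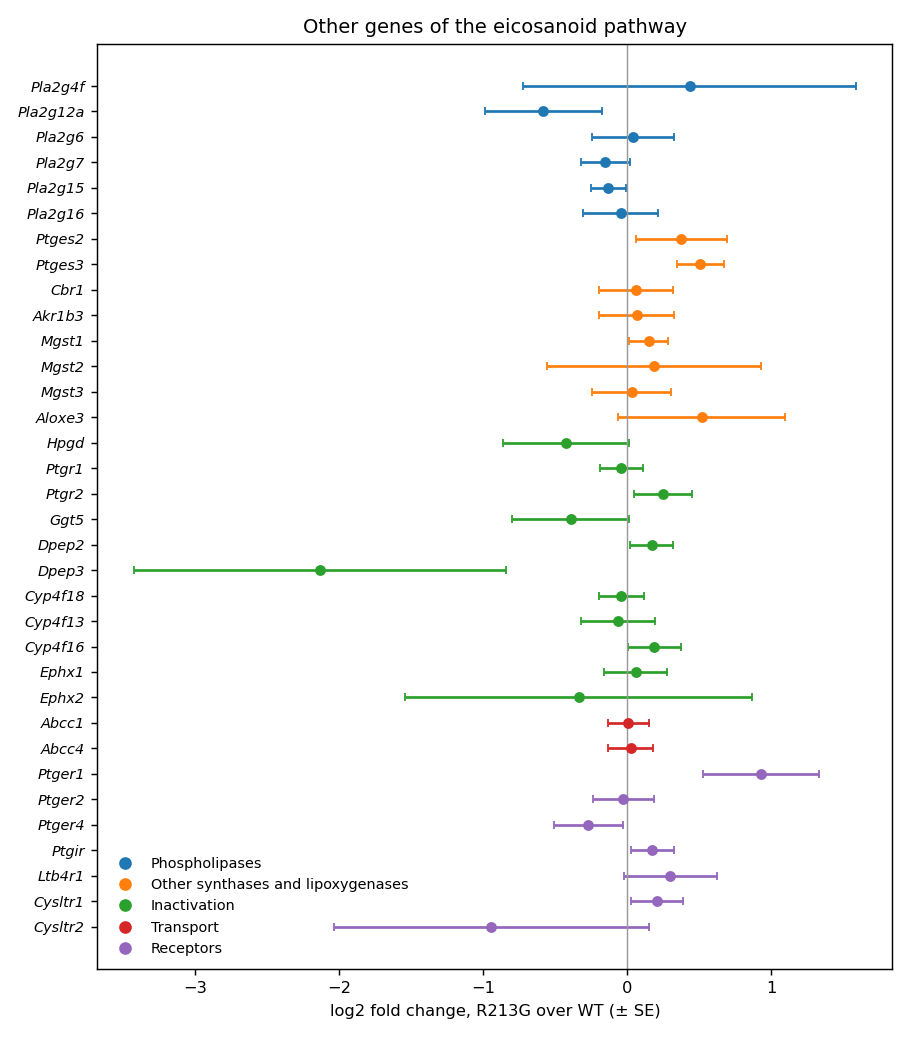
Log2 fold change, R213G over WT, with SE for the 34 tested genes of the pathway beside the members, coloured by role. The 8 other synthases and lipoxygenases all lie above 0, but the whiskers of Cbr1, Akr1b3, Mgst2, Mgst3 and Aloxe3 reach below it. The points of widest error (Dpep3, Ephx2, Pla2g4f and Cysltr2) are those of low counts.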

How the data were processed

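The values are unnormalized counts per gene symbol as the authors deposited them. STAR 2.5.1b, featureCounts (Subread 1.4.4) and the build GRCm38 are named in the submitters' processing notes. For the strand setting, the annotation release and reads that map to several places, the sources used here give nothing. The genes and lists were chosen with earlier results of these data known. Named genes were all members, the 2 of highest CPM per role of the other pathway genes, and any of those with an unadjusted p under 0.05. Alox15, Gm42418, Lars2, Clrn2, S100a9, Ppbp and the low-count genes of the pathway plot were named after their values were seen. So were the other single marker genes, apart from the highest of each list and the genes of the sort gate.

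R213G was tested against WT with edgeR 4.0.16 (quasi-likelihood, the newer form, robust, R 4.3.3), with TMM scaling and the filterByExpr filter (13575 genes), Benjamini-Hochberg adjustment over all of them and a threshold of 0.05. The SE is the log2 fold change divided by the square root of F. With 2 libraries a side, the smallest two-sided p of an exact permutation test is 0.333, so none was used. Residual degrees of freedom were 2, with a biological coefficient of variation of 0.374. On simulated counts of this comparison over 13575 genes, with changed genes at a mean of at least 5 CPM, 17.2% of genes changed 1.5-fold, 65.2% changed 2-fold and 94.4% changed 4-fold were recovered. A mean of 3.6 unchanged genes per simulation also passed. The simulated libraries varied alike, by the fitted trend of the dispersion, and none stood apart as R213G replicate 1 does. These shares therefore need not hold for the data. Gene lengths and positions came from GENCODE vM21 (GRCm38). No 2 libraries agreed within sampling noise (chi-square per degree of freedom 17.5 or more for each pair). Total counts were 33488569 to 35176210 per library. Intervals and floors of 3 counts cover counting error only.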

Additional observations from a re-analysis of the deposited data

How the results depend on the processing

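No member passed an adjusted p under 0.05 under any of the alternatives run: upper-quartile scaling, DESeq2 size factors, a mean of at least 5 CPM (which left out Ptgs2 and Ptges), no filter, the legacy form of edgeR, DESeq2 1.42.0, limma voom 3.58.1, a replicate block, and leaving out each library. The same held for the other pathway genes. Of 117 member fold changes under alternatives 110 kept their sign. The 7 that reversed all came from leaving out a library. When single libraries were left out, the log2 fold change ranged from -0.11 to 0.48 for Alox5 (below 0 without WT replicate 1), from -0.052 to 0.33 for Alox5ap, from -0.15 to 0.49 for Lta4h, from -0.66 to 0.076 for Ptgs1, from -0.77 to 0.25 for Ptgs2 and from -0.15 to 0.056 for Hpgds. The last 5 reversed without R213G replicate 1, and Hpgds also without WT replicate 2, at 0.03. The cause of these changes was not tested. Ptgs2 has no value without R213G replicate 2, since the R213G library left had 0 counts, and was -3.18 with limma voom, where that 0 enters as a log value. The genotype left with 1 library is assumed there to vary like the other.

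Over all genes 0 passed, against 1 with DESeq2 (Clrn2) and 0 to 2 when single libraries were left out (Lars2 and Gm42418 without R213G replicate 2). The count at an unadjusted p under 0.05 was 302, against 150 with a mean of at least 5 CPM (9692 genes tested) and 71 to 1960 when single libraries were left out. For the members it was 0, and 0 to 6 without single libraries: 6 without R213G replicate 2 (Ptgs2, Ptgs1, Alox5ap, Tbxas1, Lta4h and Ltc4s), where 13.5% of all genes had such a p, and 1 (Alox5) without WT replicate 2. For the other pathway genes it was 2, against 1 with DESeq2 and 0 to 8 without single libraries. The main fit tested 34 of the other pathway genes. Their highest count came without R213G replicate 2, where 37 were tested and the share over all genes was also highest, at 13.5%. Members whose libraries did not overlap numbered 3, and 4 to 9 with 3 libraries, where 56.9% to 74.1% of all genes did not overlap. The overlap settings, and the counts at an unadjusted p, were added after the data were seen.

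With the longest transcript as length, in R213G Tbxas1 ranked 2, Ltc4s 3, Lta4h 4, Alox5 5 and Ptgs1 6, and in WT Lta4h ranked 4, Ptgs1 5 and Alox5 6. The other ranks did not move.

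The genotypes share replicate numbers, but nothing in the labels pairs the mice. The replicate 1 minus replicate 2 differences of the genotypes correlated at 0.09 across genes. With the replicate number as a block 0 genes passed and 298 had an unadjusted p under 0.05, and no member reversed. Ptgs2 and Ptges, with at most 134 counts, are the members that depth limits.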
